A study of Mus musculus with 8 samples.

Results

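The genes described here are those of the heat shock and DnaJ chaperones in mouse testis. They were chosen by symbol, as the HSP70 and HSP110 (Hspa, Hsph1), HSP90 (Hsp90aa, Hsp90ab), small heat shock (Hspb), HSP60 and HSP10 (Hspd1, Hspe1), DnaJ (Dnaja, Dnajb, Dnajc), CCT chaperonin (Cct) and heat shock factor (Hsf) genes. Hspa5, Hspb11, Dnajb9, Dnajb11, Dnajc3 and Dnajc10 were left out. The rule found 74 of the 17121 genes in the deposited table, and all 74 passed the filter on low values. RNA-seq had been made from testis in 8 libraries, 4 with the genotype label N6amt1-SKO and 4 with the genotype label CTL. The series asks how N6AMT1, a methyltransferase that modifies the translation termination factor eRF1, acts in spermatogenesis. The labels do not spell out SKO and give no strain, age, Cre driver or treatment. Whether each library is from its own animal is not stated, and p-values therefore speak only of library-to-library spread, which may be technical.

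Chaperones bind unfolded or partly folded proteins and let them fold or be passed on. HSP70 proteins work in a cycle of ATP hydrolysis that DnaJ proteins start and that HSP110 and BAG proteins reset by nucleotide exchange, HSP90 acts later on selected clients, and the CCT ring folds actin and tubulin. Heat shock factors turn on the stress-inducible members. Testis is unusual in that germ cells make forms of their own. HSPA2 is abundant in meiotic spermatocytes and needed there for meiosis to finish in male mice, and HSPA1L, HSPB9, DNAJB3 and DNAJB13 belong mainly to spermatids and sperm.

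The stretches before the start sites are shown first because the members that differed between the groups include classical heat shock genes. Heat shock factors bind alternating GAA and TTC blocks. The searched letters were GAANNTTCNNGAA (3 blocks) and GAANNTTC or TTCNNGAA (2 blocks), on both strands, in the 250 bases before each RefSeq start of GRCm38.p6. A match to the 3-block letters always holds the 2-block ones. RefSeq entries were found for 60 of the 74 genes, with 79 starts. The 2-block letters stood before 22.8% of these starts and 12.8% of all 32851 starts, and the 3-block letters before 5.06% and 0.466%. The 5.06% is 4 starts that are not independent. Hspd1 and Hspe1 share 1 cluster, and the starts of Dnajb6 share 1 site. Counted by gene, 3 of the 60 members and 139 of all 27025 genes held the 3-block letters. These shares describe letters, not bound sites. Of 11 testis or germ cell forms with an entry, Hsf5 alone held the 2-block letters. Capitals mark the matching letters in the 250 bases before Hspb1 (chr5:135887669-135887918, plus strand), Hspa1b (chr17:34959239-34959488, minus strand) and the testis form Hspa1l (chr17:34972453-34972702, plus strand), each written 5′ to 3′ along its gene.
Hspb1: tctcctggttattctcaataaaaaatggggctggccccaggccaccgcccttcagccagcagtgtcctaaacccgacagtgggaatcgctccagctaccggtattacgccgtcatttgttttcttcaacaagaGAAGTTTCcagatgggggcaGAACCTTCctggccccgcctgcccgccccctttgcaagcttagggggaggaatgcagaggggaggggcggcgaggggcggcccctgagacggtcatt
Hspa1b: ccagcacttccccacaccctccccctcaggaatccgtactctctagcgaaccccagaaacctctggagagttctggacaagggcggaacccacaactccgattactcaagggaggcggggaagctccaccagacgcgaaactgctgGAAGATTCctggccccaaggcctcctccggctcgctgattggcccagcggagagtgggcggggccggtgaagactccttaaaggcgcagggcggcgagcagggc
Hspa1l: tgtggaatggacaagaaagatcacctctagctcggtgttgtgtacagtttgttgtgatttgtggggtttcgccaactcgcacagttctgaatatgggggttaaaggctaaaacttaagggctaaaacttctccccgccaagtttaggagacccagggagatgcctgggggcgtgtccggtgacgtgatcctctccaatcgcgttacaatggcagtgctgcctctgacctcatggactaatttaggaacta
Hspb1 held the 2-block letters in 2 places and Hspa1b in 1, while none were found before Hspa1l. The same window of Hspa1a differed from that of Hspa1b at 3 of 250 positions and held the same match. Hspd1 and Hspe1, which encode the mitochondrial chaperonin HSP60 and its lid HSP10, are divergently transcribed neighbours and share 1 cluster of 18 matching bases before the start of Hspe1 and before 1 of 2 starts of Hspd1. Both windows that hold the cluster consist of annotated exon bases throughout (250 of 250). The cluster is given here from each side with 6 bases on either flank (chr1:55088053-55088082).
Hspe1: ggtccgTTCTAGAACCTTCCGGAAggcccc
Hspd1: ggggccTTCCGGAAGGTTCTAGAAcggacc
The third gene with the 3-block letters was Dnajb6, which keeps aggregation-prone proteins soluble. Of the other members that differed between the groups, Dnajc27, which fell, held the 2-block letters. The windows before Hspa14, which rose, and before Hspa2, Hspa4l, Cct6b, Dnajb1, Dnajb2 and Dnajc28, which fell, held none of these letters. Hspa8 had no entry.

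N6amt1 itself averaged 582 ± 31.1 in SKO-labelled and 513 ± 84.6 in CTL libraries (SD, n = 4 each; limma adjusted p = 0.437). A value summed over the gene does not check a deletion of part of it, so the genotype rests on the labels. All values below are deposited values divided here by a further library factor, and they have no unit beyond that scale. In 6 libraries the deposited values were read counts scaled by the authors. For CTL 1 and CTL 2 no such factor was recovered, and whether they were treated alike is not known. Column totals lay between 94.2 and 103 M (in units of 1e6, M) after the authors' scaling, and about 40.6 to 70.1 M reads lay behind the 6 libraries for which they could be recovered, all but CTL 1 and CTL 2. The extraction text names heart ventricles. Spermatocyte markers summed to 346429 to 437048 in SKO and 449558 to 646403 in CTL libraries. The 6 of 10 heart muscle markers that had a tested row summed to 4414 to 6688 in SKO and 2255 to 3020 in CTL libraries, and Myl2, Nppa, Mb and Pln had no tested row. Tnni3 was the largest part of these sums, with 2826 to 4658 in SKO and 1077 to 1797 in CTL libraries. Tnni3 and Tnnt2 rose, while Myh6, Myl7, Actn2 and Ryr2 did not pass. The 18S ribosomal RNA share was above 0.5% in SKO 4, CTL 3 and CTL 4 and at most 0.273% in the other 5 libraries, so results are also given within these library sets. Spermatid markers varied strongly inside both groups, with a sum of 455152 in SKO 1 and 114509 to 130987 in SKO 2 to SKO 4, and 431709, 510641, 171045 and 51429 in CTL 1 to CTL 4. The 18S sets thus also split the CTL libraries by spermatid sum. Effects of 18S share and of spermatid content on a difference between these sets cannot be told apart.

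Members went both ways. 6 of the 74 rose (8.11%) and 8 fell (10.8%) in SKO-labelled libraries at a limma adjusted p below 0.05, while 11.9% of all 17066 tested genes rose and 7.93% fell. The shares of called members thus lay close to those of all genes. The risen genes were Hspb1, Hspe1, Hspd1, Hspa1b, Hspa8 and Hspa14, and the fallen ones Dnajc27, Dnajc28, Cct6b, Hspa4l, Dnajb2, Hspa2, Dnajb1 and Dnajb6. The median log2 fold change was -0.19 for the members and 0.04 for all genes. A list of 12 heat shock response genes held Hspa1a, Hspa1b, Hspb1, Hspb8, Hspd1, Hspe1, Hsph1, Dnaja1, Dnajb1 and Hsp90aa1 and the mainly constitutive Hspa8 and Hsp90ab1. 5 of these 12 rose, Hspa8 among them, and 1 fell (median 0.48). None of 12 testis or germ cell forms rose and 3 fell (median -0.34), and of the 62 other members 6 rose and 5 fell (median -0.13). The median of the testis forms was -0.05 with column totals, where that of all genes was 0.33. It was -0.81 within the lower 18S libraries, where all 12 were negative, and 0.13 within the higher ones, where 5 were. All genes had medians of 0.03 and 0.06 in these sets. Groups did not overlap for 7 members with all SKO libraries above and 13 with all below, 20 in all, while over all genes the groups lay apart for 26.1%, with SKO above in 15.6% and SKO below in 10.6%. All 14 calls were kept without SKO 4, and some were lost without any other single library. Risen and fallen members numbered 2 and 2 without SKO 1, 3 and 2 without SKO 2, 0 and 0 without SKO 3, and 6 and 13 without SKO 4. They numbered 5 and 6 without CTL 1, 3 and 6 without CTL 2, 1 and 4 without CTL 3, and 4 and 9 without CTL 4. The counts over all genes moved as well. These were 812 and 469 without SKO 1, 829 and 504 without SKO 2, 0 and 0 without SKO 3, and 2455 and 1526 without SKO 4. For the CTL libraries they were 1392 and 1389 without CTL 1, 1108 and 1190 without CTL 2, 688 and 549 without CTL 3, and 1899 and 1454 without CTL 4. Without SKO 3 limma called no gene of the whole table, and 18 members and 4784 genes in all had an unadjusted p below 0.05. Scaling by column totals, which moves the median of all genes to 0.33, gave 13 risen and 3 fallen members. Of all 17066 genes 4885 then rose and 456 fell, so directions here are relative to the bulk of genes.

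**Figure D1:**
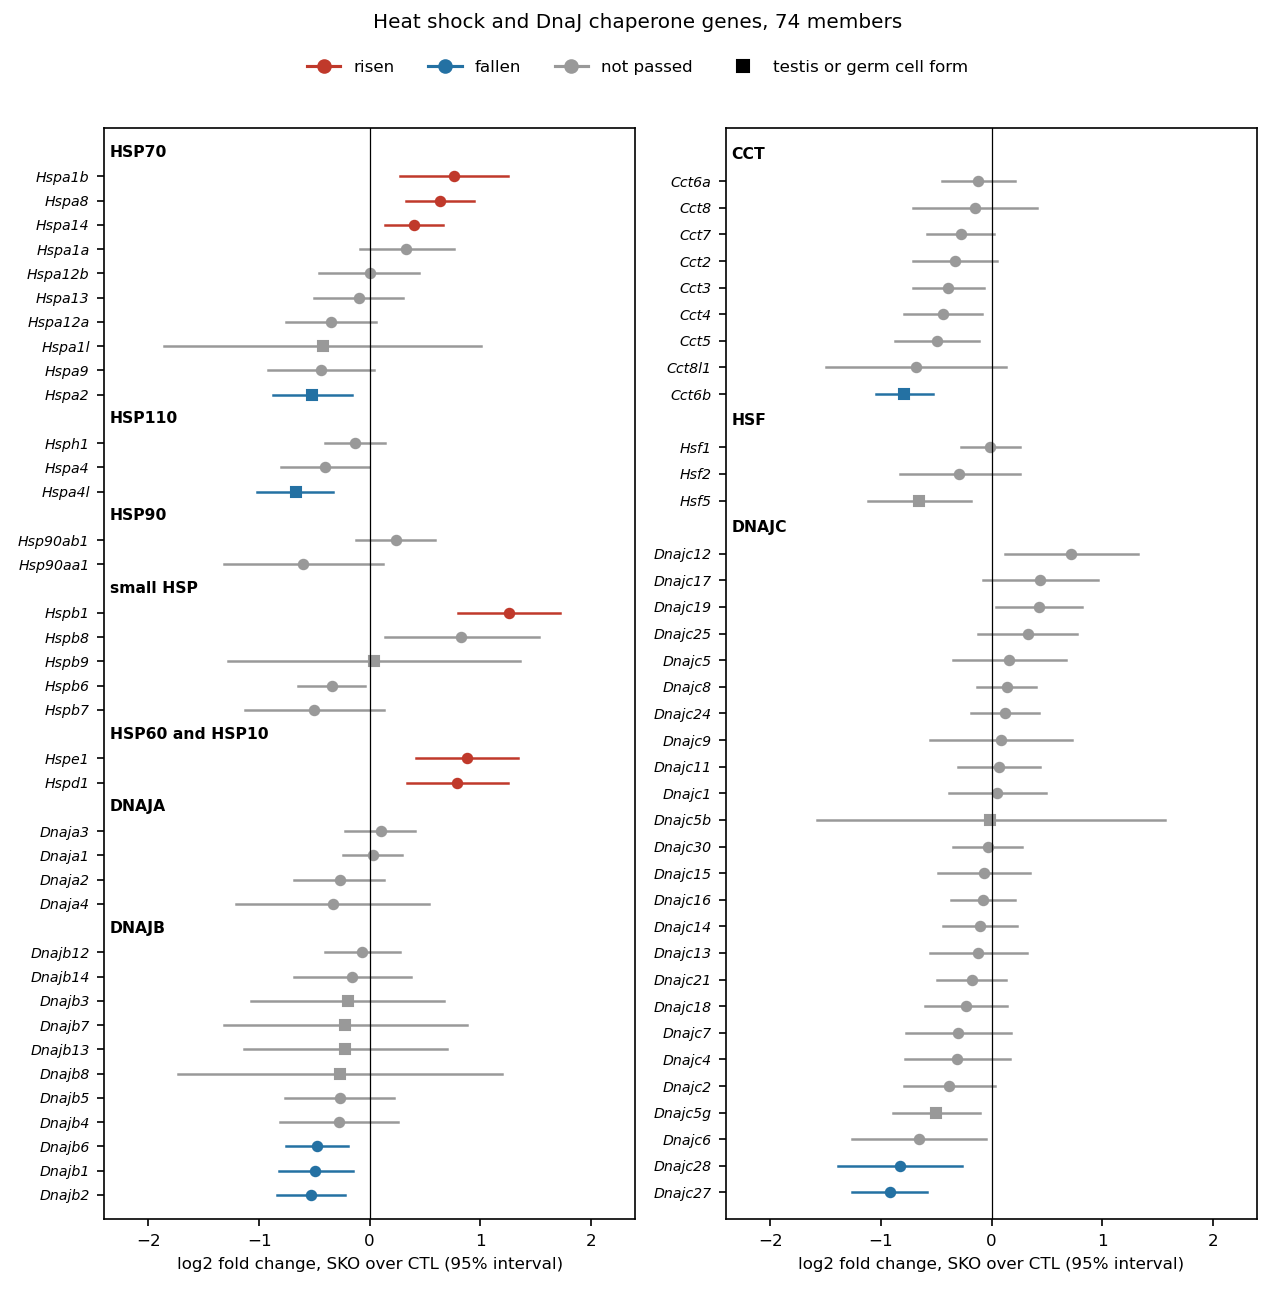
Log2 fold change of each of the 74 genes, SKO over CTL, with its 95% interval from limma (x axis), grouped by class. Red genes rose, blue genes fell and grey genes did not pass, and squares are the 12 testis or germ cell forms. All 11 DNAJB and all 9 CCT genes lie left of 0 (3 and 6 of them with column totals), and both HSP60 and HSP10 genes lie right of it.

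The largest rise was that of Hspb1, the small heat shock protein HSP25 of mouse (GRCm38, chromosome 5, 135887919 to 135889563). Its normalised values were 3821, 3401, 3391 and 3358 in SKO 1 to SKO 4, and 1855, 1910, 1159 and 1092 in CTL 1 to CTL 4. All SKO libraries lay above all CTL libraries, and the spread was narrow in SKO. The log2 fold change was 1.26 (standard error, SE, 0.21; limma adjusted p = 0.0123), a 2.39-fold difference. The libraries with less 18S gave 0.90 and those with more gave 1.59, and leaving out 1 library gave 1.09 to 1.34. Only without SKO 3 did it lose the call (adjusted p = 0.0569). Hspb1 shares 46.4% of its 75-base words with other annotated genes, led by the pseudogene Hsp25-ps1, so its level is uncertain. Its small heat shock relatives did not follow as a class. Hspb8, which acts with BAG3 in clearing aggregates, had 172, 398, 288 and 184 in SKO 1 to SKO 4 and 106, 169, 135 and 140 in CTL 1 to CTL 4 (log2 fold change 0.83, limma adjusted p = 0.0814). Groups of Hspb8 did not overlap, by a margin of 172 against 169. Hspb6 and Hspb7 had log2 fold changes of -0.34 and -0.50 (limma adjusted p = 0.1 and 0.225).

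Hspa8 encodes HSC70, the constitutive HSP70 of nearly all cells (chromosome 9, 40800984 to 40810087). It had 64157, 69277, 64850 and 75190 in SKO 1 to SKO 4, and 43812, 37660, 44697 and 50468 in CTL 1 to CTL 4. The lowest SKO library lay well above the highest CTL library. The log2 fold change was 0.64 (SE 0.14; limma adjusted p = 0.0173). In the libraries with less 18S it was 0.70, and in those with more 0.68. The call was lost without SKO 3, CTL 2 or CTL 3 (log2 fold change 0.52 to 0.67 with any 1 library left out, highest adjusted p = 0.0622). 33% of its 75-base words recur in 14 other genes.

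The stress-inducible twins Hspa1a and Hspa1b were low for HSP70 genes. Per kilobase of exon, Hspa1b averaged 317 in SKO and 186 in CTL libraries, whereas Hspa8 averaged 15896 in SKO and 10267 in CTL libraries. Hspa1b had values of 983, 867, 1077 and 632 in SKO 1 to SKO 4 and 672, 519, 407 and 487 in CTL 1 to CTL 4, with 3 of 4 SKO libraries above all CTL libraries. It rose by a log2 fold change of 0.76 (SE 0.22; limma adjusted p = 0.0395). The call was lost with any library left out except SKO 4 and CTL 1, with values from 0.60 to 0.92 (highest adjusted p = 0.121). Hspa1a averaged 480 ± 74 in SKO and 380 ± 50.5 in CTL libraries (SD, n = 4 each; limma adjusted p = 0.227). The genes share 55.8% (Hspa1b) and 61.7% (Hspa1a) of their 75-base words with other genes, first of all with each other, so how reads were split between them is uncertain.

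Hspd1 and Hspe1, whose shared upstream letters are printed above, rose together. Hspd1 (chromosome 1, 55077835 to 55088243) had 10252, 13343, 11363 and 7493 in SKO 1 to SKO 4 and 7424, 6612, 4936 and 5366 in CTL 1 to CTL 4. Hspe1 had 2234, 1942, 2846 and 2011 in SKO 1 to SKO 4 and 1584, 1296, 872 and 1199 in CTL 1 to CTL 4. Neither gene's groups overlapped, although SKO 4 exceeded CTL 1 only narrowly for Hspd1. The log2 fold changes were 0.79 (SE 0.20) for Hspd1 and 0.88 (SE 0.21) for Hspe1 (limma adjusted p = 0.0277 and 0.0214). Leaving out SKO 1, SKO 3 or CTL 3 ended both calls, and leaving out SKO 2 ended that of Hspd1 (0.64 to 0.95 for Hspd1 and 0.67 to 0.96 for Hspe1, highest adjusted p = 0.0881 and 0.0732). 31% of the 75-base words of Hspd1 recur in other transcripts, led by Hspd1-ps3. Hspd1 and Hspe1 overlap on opposite strands over 4.24% and 7.6% of their exon bases, where reads cannot be told apart without strand. The other mitochondrial chaperones did not pass. Hspa9, the mitochondrial HSP70 mortalin, averaged 38963 ± 5505 in SKO and 54186 ± 15550 in CTL libraries (limma adjusted p = 0.167), and Dnaja3, its DnaJ partner, 5887 ± 550 in SKO and 5528 ± 711 in CTL libraries (SD, n = 4 each; limma adjusted p = 0.665). Dnajc19, a part of the protein import motor, averaged 958 ± 165 in SKO and 706 ± 85.6 in CTL libraries (SD, n = 4 each; limma adjusted p = 0.104) with groups that did not overlap. Transcripts encoded in mitochondrial DNA took 2.11% to 4.53% of all values in SKO and 1.13% to 1.99% in CTL libraries, and their part in these differences was not tested.

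The last risen member was Hspa14, an HSP70 that sits at the ribosome with the DnaJ protein of Dnajc2. It had 3397, 3600, 3272 and 3141 in SKO 1 to SKO 4, and 2551, 2574, 2412 and 2637 in CTL 1 to CTL 4. The groups lay apart and both were tight, with a log2 fold change of 0.40 (SE 0.12; limma adjusted p = 0.0405). That call held with SKO 4 left out and was lost with any other single library left out (0.32 to 0.43, highest adjusted p = 0.133). Dnajc2 averaged 23909 ± 5893 in SKO and 30653 ± 3738 in CTL libraries (SD, n = 4 each; limma adjusted p = 0.159). Markers of Sertoli cells, the somatic nurse cells of the tubule, rose for 12 of 16 genes and summed to 175313 to 330639 in SKO and 79640 to 169337 in CTL libraries. 3 of 6 macrophage markers also rose (Cd74, H2-Aa and H2-Eb1). The others, Adgre1, Csf1r and Cd68, did not pass (log2 fold change 0.09, 0.42 and 0.50, limma adjusted p = 0.902, 0.216 and 0.247). 3 of the 5 tested peritubular myoid markers rose (Acta2, Myl9 and Des), as did 1 of 6 Leydig cell markers (Hsd3b1). 3 of the 7 tested spermatogonia markers rose (Stra8, Sohlh1 and Uchl1). Kit and Zbtb16 (0.57 and 0.60) and Gfra1 and Dmrtb1 (-0.26 and -0.29) did not pass. The myoid markers summed to 35336 to 41153 in SKO and 20293 to 24137 in CTL libraries, and the macrophage markers to 8158 to 9922 in SKO and 3970 to 5828 in CTL libraries. Sums overlapped for spermatogonia markers, with 49594 to 75544 in SKO and 42425 to 89331 in CTL libraries. Dmrtb1 made up most of these sums (33205 to 52595 in SKO and 31107 to 74906 in CTL libraries), so their overlap is mainly that of this gene. Sums also overlapped for Leydig cell markers, with 31211 to 64032 in SKO and 39408 to 49649 in CTL libraries. The part of these cells in the rises of Hspb1, Hspa8, Hspa1b, Hspd1, Hspe1 and Hspa14 was not tested, and in bulk tissue a change in the number of cells of a type and a change in RNA per cell cannot be told apart.

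**Figure D2:**
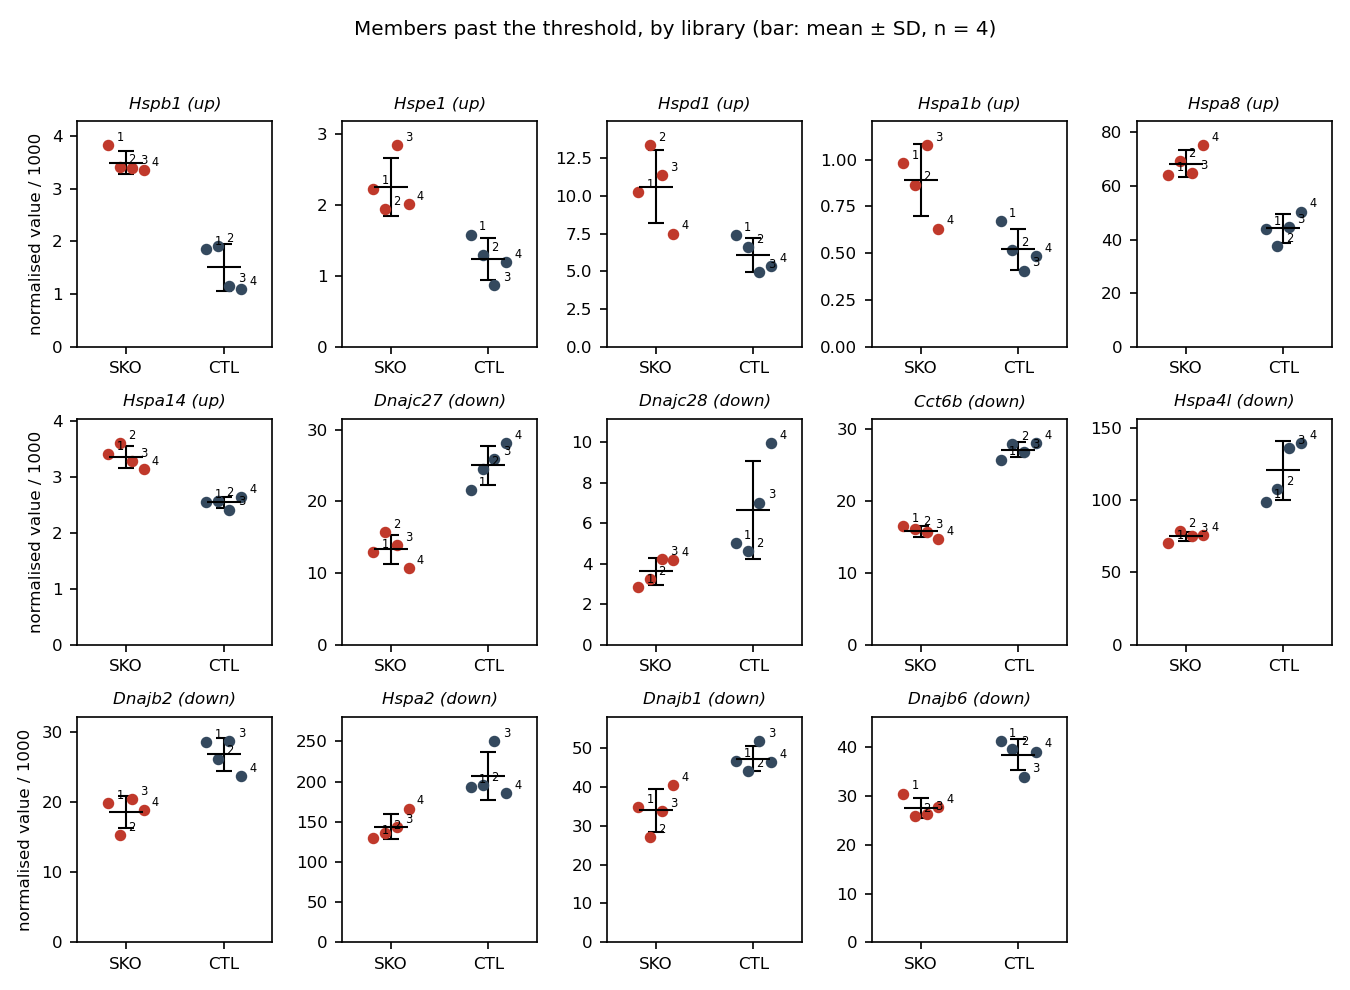
Normalised values divided by 1000 (y axis) of the 14 genes past the threshold, in SKO and CTL libraries. Points are libraries numbered by replicate, and bars are means ± SD (n = 4). These 14 genes were called from the same libraries, and groups overlap for Hspa1b alone among them.

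Hspa2, the spermatocyte HSP70 (chromosome 12, 76404176 to 76406938), moved against Hspa8. It had 129796, 136224, 143732 and 166321 in SKO 1 to SKO 4, and 193300, 195878, 250579 and 186185 in CTL 1 to CTL 4. All SKO libraries lay below all CTL libraries, and CTL 3 stood above the rest of its group. The log2 fold change was -0.52 (SE 0.16; limma adjusted p = 0.0467). This call is close to the threshold: it was lost without SKO 1, SKO 2, SKO 3, CTL 1, CTL 2 or CTL 3, with values from -0.59 to -0.47 and a highest adjusted p of 0.127. Scaling by column totals gave -0.22 (adjusted p = 0.241) where all genes had a median of 0.33.

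A ratio of 2 genes within a library does not depend on the library's factor. 4 such ratios, each of a testis or germ cell form to its widely expressed relative, were compared by an exact two-sided permutation test over the 70 assignments of 4 and 4 libraries. Hspa2 stood 2.02, 1.97, 2.22 and 2.21 times as high as Hspa8 in SKO 1 to SKO 4, and 4.41, 5.20, 5.61 and 3.69 times in CTL 1 to CTL 4. The SKO ratios were tight and all below the lowest CTL ratio. Hspa2 was lower and Hspa8 higher in all SKO than in all CTL libraries, as given above. This ratio therefore had to separate the groups, and its p-value is no further evidence beyond those values. The mean log2 ratio was 1.07 ± 0.09 in SKO and 2.22 ± 0.27 in CTL libraries (SD, n = 4 each), a difference of -1.15 (exact permutation p = 0.0286, the smallest these groups can give; 0.0381 adjusted over the 4 ratios). Libraries with less 18S gave -1.21 and those with more gave -1.04, sets that are too small for the test to pass. Shares per kilobase of exon were taken of the summed HSP70 genes among the members, which leave out Hspa5. Hspa2 made up 65.6% ± 1.23 in SKO and 74.4% ± 3.03 in CTL libraries, and Hspa8 19.2% ± 0.848 in SKO and 9.88% ± 1.48 in CTL libraries (SD, n = 4 each).

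The other ratios moved by different amounts. Cct6b, the testis form of a CCT ring subunit, stood 0.781, 0.615, 0.614 and 0.573 times as high as Cct6a in SKO 1 to SKO 4 and 1.09, 1.21, 0.903 and 0.897 times in CTL 1 to CTL 4. The difference of mean log2 ratios was -0.66, with no overlap (exact permutation p = 0.0286, n = 4 each; 0.0381 adjusted). Psph, on the opposite strand, overlaps 15.3% of the exon bases of Cct6a. Hspa4l, an HSP110 abundant in germ cells, stood 1.84, 1.92, 1.84 and 1.62 times as high as Hspa4 in SKO 1 to SKO 4 and 2.19, 2.31, 2.27 and 1.93 times in CTL 1 to CTL 4, with SKO 2 just below CTL 4. The difference there was -0.27 (exact permutation p = 0.0286, n = 4 each; 0.0381 adjusted). The ratio of Hspa1l to Hspa8 was 0.0831, 0.0244, 0.0292 and 0.0227 in SKO 1 to SKO 4 and 0.13, 0.182, 0.0654 and 0.0162 in CTL 1 to CTL 4, with groups that overlap. Its difference was -1.06 (exact permutation p = 0.286, n = 4 each), and 0.06 without CTL 1 and CTL 2. With any 1 of SKO 1 to SKO 4, CTL 1 or CTL 2 left out, the adjusted p of the ratios of Hspa2, Hspa4l and Cct6b was 0.0571 or 0.0762, with differences of -1.18 to -1.10, -0.30 to -0.22 and -0.76 to -0.58.

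**Figure D3:**
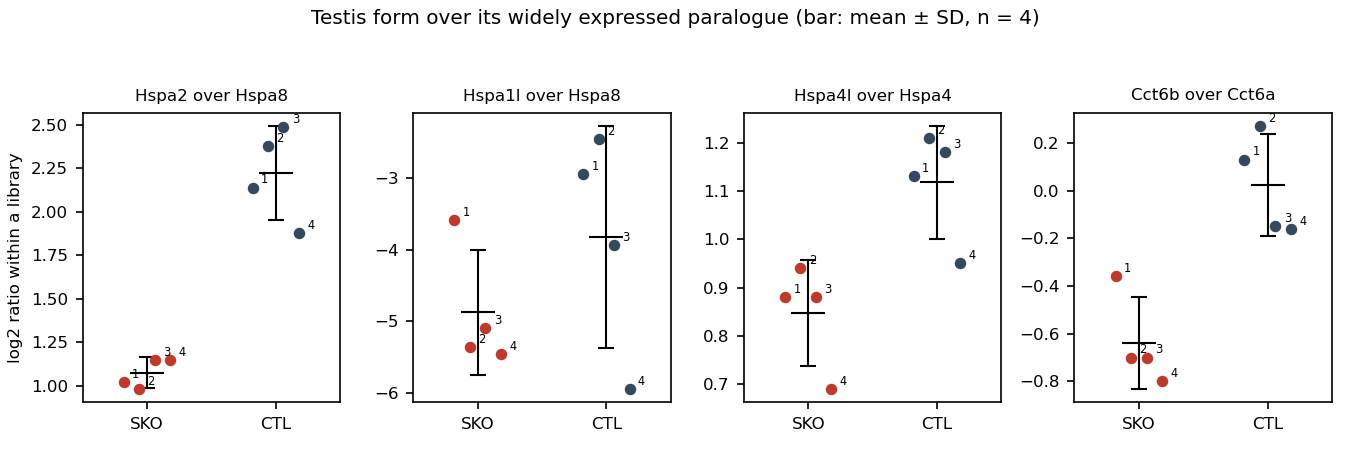
Log2 ratio within each library (y axis, each panel on its own scale) of a testis or germ cell form to its widely expressed relative, in SKO and CTL libraries. Points are libraries numbered by replicate, and bars are means ± SD (n = 4). The groups are apart for Hspa2 over Hspa8, Hspa4l over Hspa4 and Cct6b over Cct6a, and overlap for Hspa1l over Hspa8.

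Behind the ratios, both Hspa4l and Cct6b fell. Hspa4l (chromosome 3, 40744495 to 40796103) had 70354, 78405, 74965 and 75890 in SKO 1 to SKO 4, and 98746, 107931, 136288 and 139526 in CTL 1 to CTL 4, a log2 fold change of -0.67 (SE 0.15; limma adjusted p = 0.0202). Cct6b (chromosome 11, 82719250 to 82764321) had 16516, 16045, 15625 and 14666 in SKO 1 to SKO 4, and 25701, 27900, 26711 and 27991 in CTL 1 to CTL 4. It was tight in both groups and fell by 0.79 on the log2 scale (SE 0.11; limma adjusted p = 0.0123). Only without SKO 3 did Cct6b lose its call (-0.86 to -0.75 with any 1 library left out, adjusted p = 0.0569), and Hspa4l lost its call without SKO 1, SKO 2 or SKO 3 (-0.81 to -0.63, highest adjusted p = 0.0708). Hsf5, a heat shock factor of pachytene spermatocytes, had 26847, 28926, 28585 and 39749 in SKO 1 to SKO 4 and 38791, 39092, 64526 and 55740 in CTL 1 to CTL 4. SKO 4 alone reached into the CTL range, and Hsf5 just missed the threshold (log2 fold change -0.66, limma adjusted p = 0.052). 4 of 10 markers of pachytene and later spermatocytes fell and none rose, and the part of spermatocyte content in these falls was not tested.

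Hspa1l and the spermatid forms did not separate the groups but varied together inside them. Hspa1l had 5324, 1685, 1886 and 1698 in SKO 1 to SKO 4, and 5693, 6853, 2917 and 813 in CTL 1 to CTL 4, an 8.43-fold range over the libraries. SKO 1, CTL 1 and CTL 2 were its 3 highest libraries, and the log2 fold change was -0.42 with a 95% interval of -1.86 to 1.01 (limma adjusted p = 0.674). Without CTL 1 and CTL 2 it was 0.54, in the libraries with less 18S -1.28 and in those with more 0.16, none of which passed. Gm10501, on the opposite strand, overlaps 71.9% of the exon bases of Hspa1l, and the genes cannot be told apart without strand. The small heat shock gene Hspb9 had 33235, 17015, 20405 and 11807 in SKO 1 to SKO 4, and 40838, 41665, 9844 and 7187 in CTL 1 to CTL 4. Its log2 fold change was 0.04 (95% interval -1.28 to 1.36) over all libraries and -0.87 within the lower 18S libraries, where it passed (limma adjusted p = 0.0467). Without CTL 1 and CTL 2 it passed in the other direction (1.14, limma adjusted p = 0.0368). Dnajb3, a DnaJ gene of spermatids, had 37827, 16804, 25632 and 23487 in SKO 1 to SKO 4 and 44220, 44764, 24458 and 13703 in CTL 1 to CTL 4 (log2 fold change -0.20, limma adjusted p = 0.752).

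The same 3 libraries were the highest for Dnajb13, which belongs to the radial spokes of the sperm tail, and for Dnajb7, Dnajb8 and Dnajc5b. 37.2% of the exon bases of Dnajb8 overlap 1700031F10Rik. Dnajb13 had 15821 in SKO 1 and 7147 to 9729 in the other SKO libraries, and 17141, 20684, 7836 and 5856 in CTL 1 to CTL 4. Dnajc5b, a relative of the cysteine string protein gene Dnajc5, ranged over 9.31-fold, with 5431 in SKO 1 and 1520 to 2825 in the other SKO libraries, and 5874, 7692, 1318 and 826 in CTL 1 to CTL 4. 7 of the 12 testis or germ cell forms, 13 of the 74 members and 12.9% of all tested genes had these 3 libraries on top. The summed spermatid markers had the same 3 on top. None of these 7 forms passed, with limma adjusted p from 0.674 to 0.997, and the 95% intervals of their log2 fold changes reached down to between -1.86 and -1.07 and up to between 0.67 and 1.57. The set of 7 was picked after its values were seen.

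**Figure D4:**
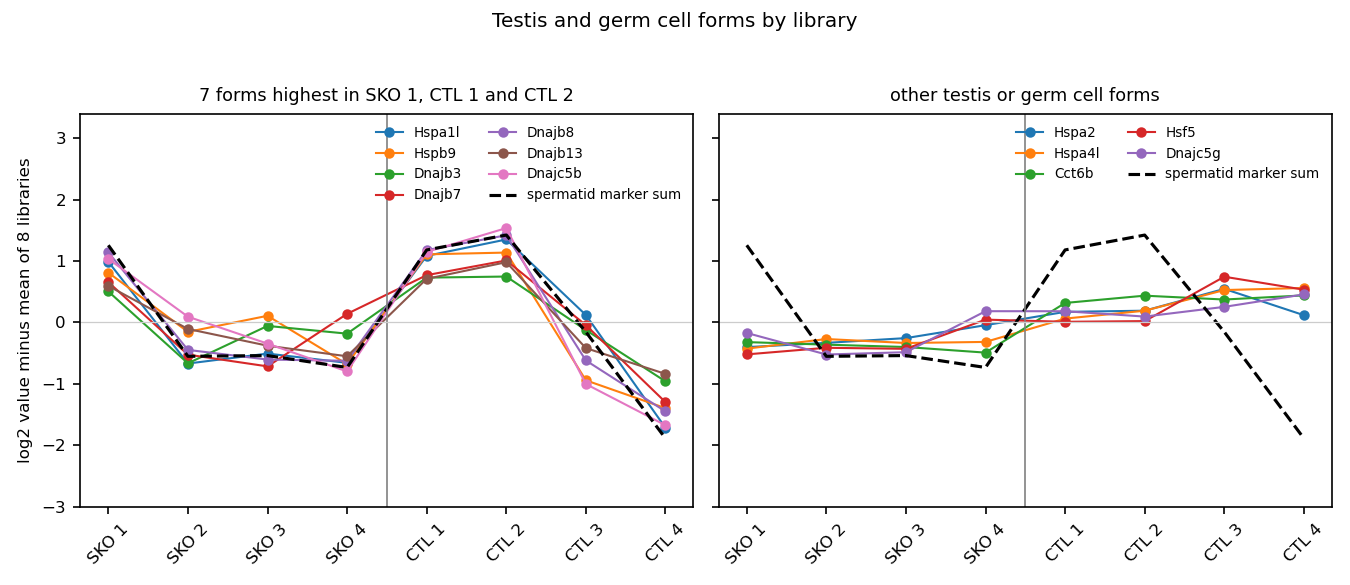
Log2 normalised value minus the mean of the 8 libraries (y axis) for the 12 testis or germ cell forms, by library, with the summed spermatid markers as a dashed line. The 7 forms on the left are highest in SKO 1, CTL 1 and CTL 2, as is the marker sum, and the 5 on the right are not.

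The CCT chaperonin is a double ring of 8 kinds of subunit, of which Tcp1 is the first and is not caught by the symbol rule. Tcp1 had 111409, 115668, 114738 and 143462 in SKO 1 to SKO 4, and 165860, 175525, 234541 and 248937 in CTL 1 to CTL 4. Its groups lay apart and it fell by 0.75 on the log2 scale (SE 0.18; limma adjusted p = 0.0229). The call was lost without SKO 1, SKO 2, SKO 3 or CTL 3 (-0.90 to -0.68, highest adjusted p = 0.0806), and Acat3 overlaps 16.9% of its exon bases on the opposite strand. None of the other 7 ring genes passed. Their log2 fold changes lay between -0.49 and -0.12 (median -0.33). Groups lay apart with SKO below for Cct3, Cct4, Cct5 and Cct7, and for 10.6% of all genes. Cct7 averaged 62103 ± 4301 in SKO and 75641 ± 7142 in CTL libraries (SD, n = 4 each; limma adjusted p = 0.154). Cct5 had 34049, 37558, 41535 and 45558 in SKO 1 to SKO 4 and 47053, 47128, 64827 and 66007 in CTL 1 to CTL 4 (limma adjusted p = 0.067). Cct8l1, outside the ring genes counted here, had a log2 fold change of -0.68 (limma adjusted p = 0.203). The groups of Cct8 overlapped widely, with 30301 to 55504 in SKO and 30740 to 52137 in CTL libraries (limma adjusted p = 0.702). All 9 members of the class were negative with TMM, median-ratio and upper-quartile factors, and 6 of 9 with column totals, where all 9 still lay below the median of all genes.

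**Figure D5:**
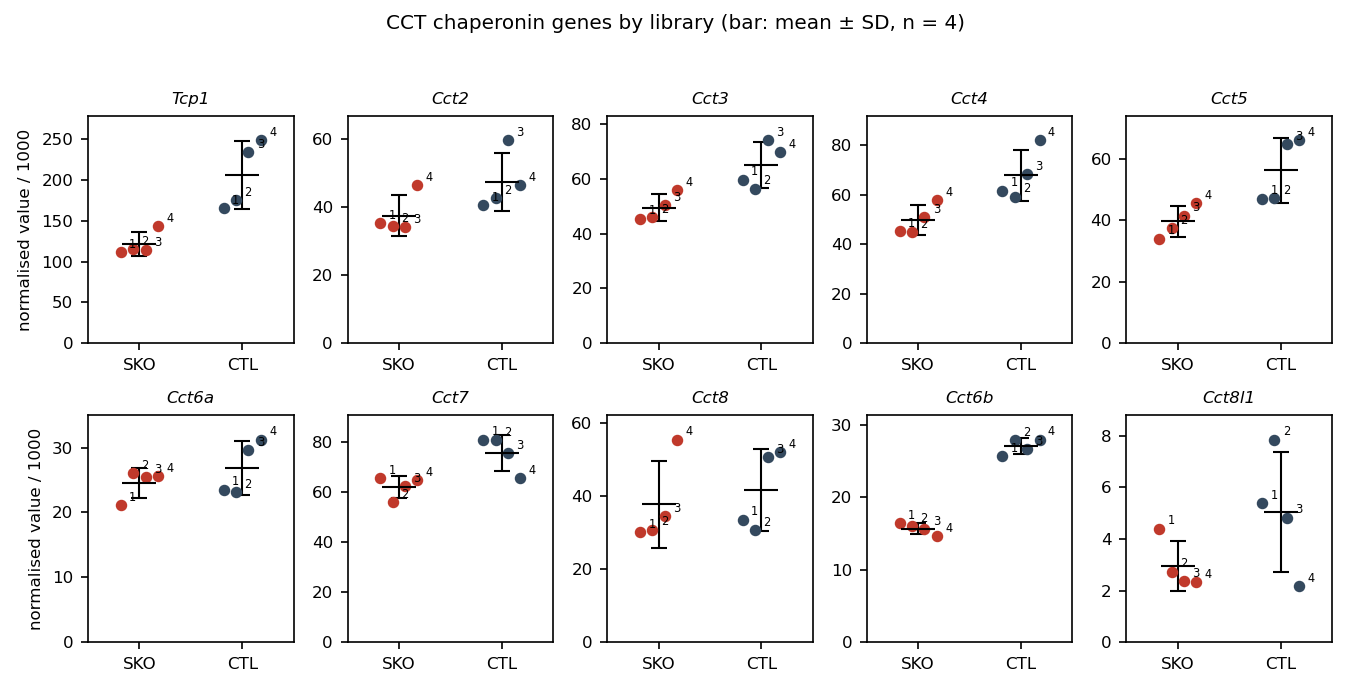
Normalised values divided by 1000 (y axis) of Tcp1 and the 9 Cct genes in SKO and CTL libraries. Points are libraries numbered by replicate, and bars are means ± SD (n = 4). The groups are apart for Tcp1, Cct3, Cct4, Cct5, Cct7 and Cct6b.

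Of the 4 DNAJA, 11 DNAJB and 25 DNAJC genes 5 fell and none rose, where 7.93% of all genes fell and 11.9% rose. The fallen share is near that of all genes. Dnajc27, a small GTPase with a J domain (chromosome 12, 4082583 to 4110606), had 12898, 15717, 13856 and 10692 in SKO 1 to SKO 4, and 21553, 24553, 25863 and 28152 in CTL 1 to CTL 4. It had the largest fall of the members, by 0.92 on the log2 scale (SE 0.15; limma adjusted p = 0.0123), and lost its call only without SKO 3 (adjusted p = 0.0569). Dnajc28 fell by 0.83 (limma adjusted p = 0.0451), with 2856 to 4217 in SKO libraries and 5020, 4628, 7024 and 9971 in CTL 1 to CTL 4, so CTL 3 and CTL 4 carried much of the gap. Its log2 fold change was -0.50 within the lower 18S libraries (adjusted p = 0.0612), and the call was lost without SKO 1, SKO 2, SKO 3, CTL 3 or CTL 4 (-1.03 to -0.64, highest adjusted p = 0.11).

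All 11 DNAJB genes had negative log2 fold changes, from -0.53 to -0.07 (median -0.27), and 3 of the 11 fell. With column totals only 3 of the 11 were negative, all 11 still lay below the median of all genes, and within the higher 18S libraries 4 of 11 did. Dnajb1, the heat-inducible HSP40, had 34663, 27096, 33636 and 40476 in SKO 1 to SKO 4 and 46691, 44025, 51775 and 46393 in CTL 1 to CTL 4 (log2 fold change -0.49, limma adjusted p = 0.047). It moved opposite to Hspb1 and Hspa1b in the same libraries. Dnajb2, which hands clients to the proteasome, averaged 18607 ± 2296 in SKO and 26821 ± 2387 in CTL libraries (SD, n = 4 each; log2 fold change -0.53, limma adjusted p = 0.0294). Dnajb6 averaged 27616 ± 2078 in SKO and 38529 ± 3153 in CTL libraries (SD, n = 4 each; log2 fold change -0.48, limma adjusted p = 0.0293). Groups lay apart with SKO below for these 3 of the 11 genes, which were called from the same libraries, and for 10.6% of all genes. Dnajb2 lost its call without SKO 1, SKO 2, SKO 3 or CTL 3 (-0.62 to -0.44, highest adjusted p = 0.0797), and Dnajb6 without SKO 1, SKO 2, SKO 3, CTL 1 or CTL 2 (-0.59 to -0.45, highest adjusted p = 0.0994). Dnajb1 kept its call with SKO 4 left out and lost it with any other library left out (-0.58 to -0.38, highest adjusted p = 0.123).

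None of the 4 DNAJA genes passed. Dnaja2, another partner of cytosolic HSP70, averaged 26344 ± 3665 in SKO and 32207 ± 7028 in CTL libraries (SD, n = 4 each; log2 fold change -0.27, limma adjusted p = 0.295). Dnaja1, a main partner of cytosolic HSP70, averaged 21733 ± 1818 in SKO and 21280 ± 1052 in CTL libraries (SD, n = 4 each), with a 95% interval of the log2 fold change of -0.24 to 0.29. Of the 25 DNAJC genes 23 did not pass, and the class ran from -0.92 to 0.72 on the log2 scale (median -0.07). Dnajc12, a co-chaperone of aromatic amino acid hydroxylases, had 633, 633, 913 and 480 in SKO 1 to SKO 4 and 570, 425, 272 and 355 in CTL 1 to CTL 4 (log2 fold change 0.72, limma adjusted p = 0.0845). Dnajc5g, a testis relative of Dnajc5, averaged 8908 ± 2115 in SKO and 12369 ± 1355 in CTL libraries (SD, n = 4 each; limma adjusted p = 0.0737).

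Both HSP90 genes were among the most abundant members per kilobase, and neither passed. Hsp90aa1, the inducible HSP90, had 199987, 236542, 218392 and 375118 in SKO 1 to SKO 4, and 257882, 270398, 473090 and 627318 in CTL 1 to CTL 4. SKO 4, CTL 3 and CTL 4, the libraries with more 18S, were the highest, and over all libraries the log2 fold change was -0.60 (limma adjusted p = 0.201). Without CTL 1 and CTL 2 it was -1.18, which passed (limma adjusted p = 0.0138). That setting compares CTL 3 and CTL 4, both with more 18S, with SKO 1 to SKO 3, which have less, and SKO 4. It thus mixes genotype label with 18S share. Libraries with less 18S gave -0.28, which did not pass (limma adjusted p = 0.09), while those with more gave -0.52. For Hsp90aa1, 42.8% of the 75-base words recur in other transcripts. Hsp90ab1, the constitutive form, averaged 80644 ± 4632 in SKO and 69276 ± 12413 in CTL libraries (SD, n = 4 each; limma adjusted p = 0.309). Hsph1, the inducible HSP110, averaged 7346 ± 535 in SKO and 8045 ± 591 in CTL libraries (SD, n = 4 each; limma adjusted p = 0.465). Its log2 fold change had a 95% interval of -0.40 to 0.14. Hsf1, the main factor of the heat shock response, averaged 5634 ± 242 in SKO and 5685 ± 528 in CTL libraries (SD, n = 4 each), with a 95% interval of -0.28 to 0.26. Hsf2 averaged 5665 ± 1749 in SKO and 6887 ± 1800 in CTL libraries (SD, n = 4 each; limma adjusted p = 0.423).

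Co-chaperones and prefoldin genes were listed apart from the members. All 46 listed genes were tested, of which 6 rose (13%), 3 fell (6.52%) and 37 did not pass (median log2 fold change 0.02). These shares are near the 11.9% risen and 7.93% fallen of all genes. Pdcl3, a CCT cofactor, rose by 0.92, with 1764, 1712, 1826 and 1469 in SKO 1 to SKO 4 and 1112, 1008, 810 and 683 in CTL 1 to CTL 4 (limma adjusted p = 0.0147). The prefoldin subunit gene Vbp1, which hands clients to CCT, averaged 2177 ± 51 in SKO and 1394 ± 143 in CTL libraries (SD, n = 4 each; log2 fold change 0.65, limma adjusted p = 0.0151). Fkbp6, an HSP90 co-chaperone of meiosis and the piRNA pathway, had 10791, 9309, 9834 and 10077 in SKO 1 to SKO 4 and 6989, 6569, 6081 and 5533 in CTL 1 to CTL 4 (log2 fold change 0.67, limma adjusted p = 0.0136). Bag2, Hikeshi, which brings HSP70 into the nucleus, and Chordc1, an HSP90 co-chaperone, rose by 0.83, 0.73 and 0.61 (limma adjusted p = 0.0226, 0.0419 and 0.0305). Hikeshi kept its call with CTL 1 left out and lost it with any other library left out (0.47 to 0.80, highest adjusted p = 0.102). Chordc1 lost its call without SKO 2, SKO 3, CTL 1, CTL 2 or CTL 3 (0.51 to 0.74, highest adjusted p = 0.103), and Bag2 without SKO 1, SKO 2, SKO 3 or CTL 3 (0.69 to 0.96, highest adjusted p = 0.0782). Vbp1 lost its call without SKO 3 or CTL 3 (highest adjusted p = 0.06), and Pdcl3 and Fkbp6 only without SKO 3 (adjusted p = 0.0583 and 0.0576).

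Besides Tcp1, the fallen genes were Bag6 and Bag3. Bag6, whose product keeps HSPA2 stable in spermatocytes, had 112758, 105565, 106037 and 83383 in SKO 1 to SKO 4 and 162627, 176705, 188508 and 128436 in CTL 1 to CTL 4 (log2 fold change -0.68, limma adjusted p = 0.0256). Bag3, a heat-inducible partner of HSPB8, averaged 4755 ± 995 in SKO and 7411 ± 1337 in CTL libraries (SD, n = 4 each; log2 fold change -0.64, limma adjusted p = 0.0378). Bag6 lost its call without SKO 1, SKO 2, SKO 3 or CTL 3 (-0.83 to -0.59, highest adjusted p = 0.0778), and Bag3 also without CTL 4 (-0.78 to -0.57, highest adjusted p = 0.104). Groups did not overlap for any of these 9 genes, but the genes were called from the same libraries. Of the 46 listed genes 12 had groups that lay apart, as had 26.1% of all genes. Without SKO 3 limma called none of the 46 (13 had an unadjusted p below 0.05), without CTL 3 it called 2, and without SKO 1 or SKO 2 it called 4.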

How the data were processed

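RNA-seq libraries of mouse testis, 4 labelled N6amt1-SKO and 4 labelled CTL, were grouped by sample title. Reads were handled with fastp and CASAVA, build mm10, HISAT2 (2.0.5) and featureCounts (1.5.0-p3), per the submitters' processing notes. The NEBNext Ultra kit named in the labels' protocols does not mark strand. The deposited values are a score: the authors scaled read counts by a factor per library and rounded them, as read from the values of 6 libraries. There at least 99.8% of values up to 1000 were such multiples. No factor was recovered for CTL 1 and CTL 2. The scaling method is not stated.

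A gene was tested if 4 or more libraries reached 25 (17066 of 17121). TMM factors, with trims of 30% of ratios and 5% of levels, scaled the values, which were taken as log2(value + 5), which understates changes of low genes, and tested with limma 3.58.1 in R 4.3.3 with a variance trend. All p-values are two-sided, and limma's were adjusted by Benjamini-Hochberg over every gene tested, with 0.05 as threshold. Each printed mean is over normalised values. Per-kilobase levels use GENCODE M21 exon lengths, and exon overlaps and shared 75-base words come from the same release. Upstream sequences are RefSeq's. Alternatives were other factors, constants, filters, a replicate block, no trend and subsets of libraries. The fit was tested on simulated data.

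Members, lists and tests were chosen with earlier results of these data known. Named were all called members and companions, testis, heat-inducible and Hsf members, and the gene with the highest mean normalised value, not corrected for length, in each class. Others named, such as Dnajc12, Dnajc19, Hspa9, Dnaja3, Hspb6, Hspb7, Cct5 and Cct8, were chosen after their values were seen.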

Additional observations from a re-analysis of the deposited data

Results flagged for a closer look

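Among the 34 named members, 68 groups of 4 libraries were looked at for a library far from the other 3, and chance flags about 1 in 20 such groups. 7 were found. In SKO 1, Hspa1l (5324 against 1685 to 1886) and Dnajb8 (1970 against 576 to 652) were high, as were the spermatid markers, and Hspb1 was slightly high (3821 against 3358 to 3401). SKO 4 was high for Hsf5 (39749 against 26847 to 28926), Hsf2 (8262 against 4505 to 5104) and Dnaja1 (24439 against 20514 to 21010). CTL 3 was high for Hspa2 (250579 against 186185 to 195878).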

How the results depend on the processing

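The labels name no pairing of libraries by replicate number. Correlations of same-numbered deviations from the group means ran from 0.0119 to 0.673, with 2 of 4 under 0.1. Spermatid markers varied strongly inside both groups, so these correlations cannot decide whether libraries are paired. With the replicate block 5 members rose and 11 fell, while 2162 of all 17066 genes rose and 1701 fell. Hspa2 had -0.52 there (limma adjusted p = 0.0577). The number of fallen members was 5 with upper-quartile factors, 3 with column totals (13 risen), 16 without CTL 1 and CTL 2 together and 19 within the lower 18S libraries. Over all genes, 1158 of 17066 fell with upper-quartile factors and 456 with column totals (4885 risen). Without CTL 1 and CTL 2 together 2322 of 16998 genes fell, and within the lower 18S libraries 2283 of 17003. The higher 18S set holds 1 SKO library, assumed to vary like the others, so only effect sizes are given for it here. Companion calls numbered 14 without CTL 1 and CTL 2 together. Hspa2 missed the threshold with upper-quartile factors (-0.47), column totals (-0.22) and a constant of 50 (-0.52). Within the higher 18S libraries its log2 fold change was -0.36. Hspb9 turned to -0.87 within the lower 18S libraries. The cause was not tested.

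With 1 library left out, risen members numbered 0 to 6, fallen members 0 to 13 and companion calls 0 to 10. Over all genes 0 to 2455 rose and 0 to 1526 fell. Hspa2 ranged from -0.59 to -0.47, and Hspa1l from -1.10 to -0.09. The ratio differences ranged from -1.26 to -1.06 (Hspa2 over Hspa8), -1.77 to -0.60 (Hspa1l over Hspa8), -0.32 to -0.22 (Hspa4l over Hspa4) and -0.76 to -0.58 (Cct6b over Cct6a). Of 382 other values of named members under other settings, 26 lost and 16 gained a call, and of 256 with 1 library left out, 50 lost and 5 gained one.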
